A study of Mus musculus with 40 samples.

Results

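The comparison described here is that of YUMM2.1 cells carrying dHLH-Bmal1 with cells carrying the empty vector (EV), both with the control hairpin shNC. It rests on 4 of the 40 libraries of the series, 2 of dHLH-Bmal1 shNC and 2 of EV shNC, which the labels alone assign to their groups. YUMM2.1 is a mouse melanoma line from a transgenic tumor whose alleles include an activating Braf mutation, loss of 1 copy of Cdkn2a and 1 stabilized copy of beta-catenin, and both groups share these alleles. dHLH-Bmal1 is a Bmal1 without the basic helix-loop-helix domain, the part that contacts DNA; it still pairs with Clock and acts as a dominant negative on the cells' own Clock-Bmal1. EV is the vector with no Bmal1. Vectors were delivered by lentivirus with a GFP marker, and GFP-positive cells were sorted. shNC, a scrambled hairpin, was brought in with a second lentivirus and puromycin. The cells keep their own Bmal1, so the comparison is of added dHLH-Bmal1 and not of loss of Bmal1. The series also holds WT-Bmal1 shNC cells, EV and dHLH-Bmal1 cells with no hairpin, and the same constructs with the Myh9 hairpins shMyh9#2 or shMyh9#4, which are used below only to place the dHLH-Bmal1 effect. The libraries are QuantSeq, which reads the 3′ end of polyadenylated RNA.

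Depth differed more within dHLH-Bmal1 shNC than between the groups. The totals were 8217193 and 9232728 counts in EV shNC replicates 1 and 2 and 14718654 and 6347481 in dHLH-Bmal1 shNC, within a range of 3643332 to 22970049 over the series. Replicates differed by more than counting error, with a chi-square per gene of 5.07 for EV shNC and 3.94 for dHLH-Bmal1 shNC where counting error alone gives 1. Pearson correlations of log2 levels across genes were 0.988 and 0.987. The 4 libraries stand under the same labels in the study's own table. Of the no-hairpin libraries set beside them below, the values of the one labelled EV replicate 2 stand under WT-Bmal1 replicate 1 in that table, and the other way round. Which of these labels is right is not given. The shared calls, the count of genes whose effects differ and some single genes are given with and without the library labelled EV replicate 2. Other no-hairpin values below include it. Levels are given as CPM (counts relative to the library's total after edgeR's TMM scaling), in the order replicate 1 and replicate 2. Differences are log2 fold changes ± the standard error, dHLH-Bmal1 shNC over EV shNC unless said otherwise. The edgeR adjusted p comes from its quasi-likelihood F test, adjusted by Benjamini-Hochberg over every gene tested, and genes under 0.05 are said to rise or fall. An exact permutation of 2 against 2 libraries has a smallest two-sided p of 0.333. The p-values weigh a difference against the spread between replicate libraries of all groups fitted together. For this comparison these were 8 libraries in 4 groups. Variation between separately made lines is not covered. In bulk RNA, fewer cells of a type and less RNA per cell cannot be told apart.

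Arntl, the gene of Bmal1 (ENSMUSG00000055116, mm10 chromosome 7, 113207465 to 113314126), was at 30.5 and 26.05 CPM in EV shNC and 48.4 and 36.9 CPM in dHLH-Bmal1 shNC. Both dHLH-Bmal1 libraries lay above both EV libraries, and Arntl rose (0.61 ± 0.15, edgeR adjusted p = 0.00521). The call was lost without EV shNC replicate 2 (edgeR adjusted p = 0.0827) and without dHLH-Bmal1 shNC replicate 1 (edgeR adjusted p = 0.158). Reads at the 3′ end do not cover the deleted domain, and whether the construct's message ends where the table counts it is not given in the sources used here, so this level checks neither the deletion nor the amount of construct. Myh9, the heavy chain of non-muscle myosin IIA and the target of the hairpins in the other groups, was at 684 and 647 CPM in EV shNC and 887 and 865 CPM in dHLH-Bmal1 shNC and rose (0.397 ± 0.078, edgeR adjusted p = 7.67e-04).

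The circadian clock of mammalian cells is a feedback loop of transcription. Bmal1 pairs with Clock on E-boxes and drives Per and Cry, whose proteins return to block the pair, as well as the REV-ERB receptors Nr1d1 and Nr1d2, which hold down Arntl, and the output factors Dbp and Tef. In melanoma, cell states run from a melanocytic state that depends on Sox10 and Mitf, through a neural crest-like state marked by Ngfr, to an undifferentiated, mesenchymal state high in Sox9 and Axl that makes extracellular matrix.

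The change was wide. Of 14027 genes tested, 4835 (34.5%) were called, of which 2416 (17.2%) were higher and 2419 (17.2%) lower in dHLH-Bmal1 shNC. In 4824 of these (34.4% of the genes tested) the libraries of the groups did not overlap. The median absolute log2 fold change of the called genes was 0.77, and 1821 of them changed by at least 1, 1041 upward and 780 downward. TMM scaling places the centre of the log2 fold changes close to 0, so a shift shared by most genes would not show. The median of all genes tested was 0.013, and changes are read against that centre. Counts of list members called below are likewise to be read against 17.2% of all genes on each side. The plot of levels by library shows single genes of these groups with all their libraries.

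**Figure D1:**
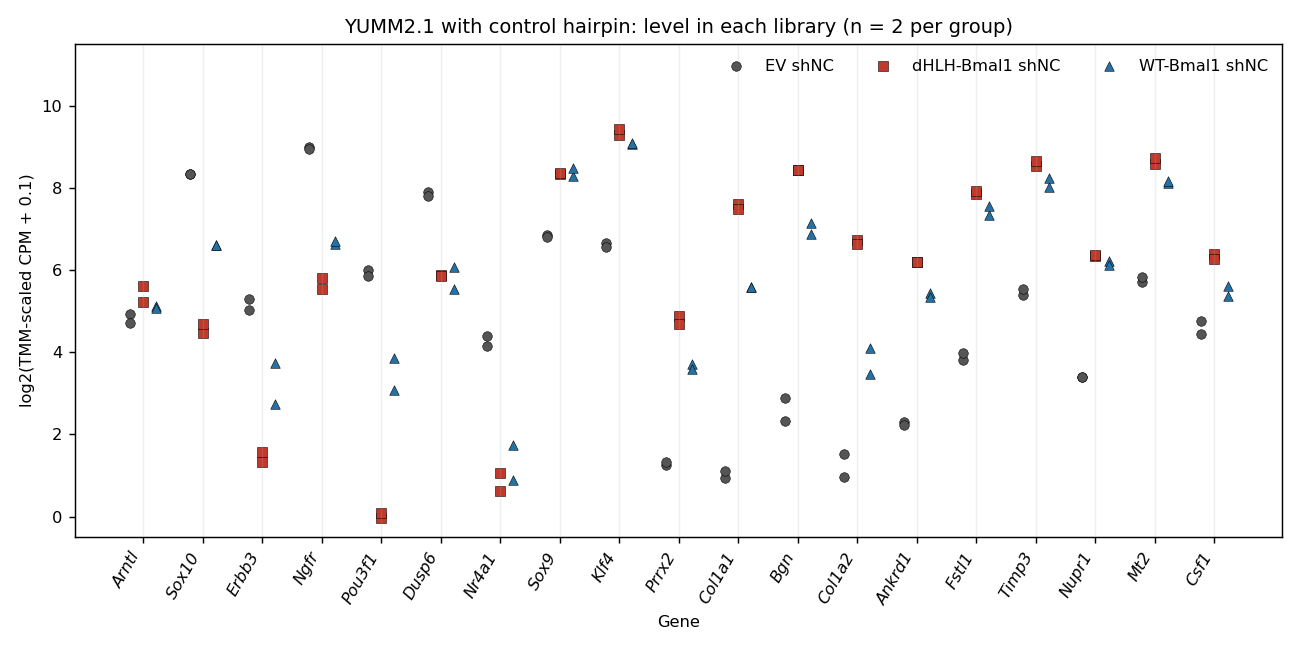
Level of 19 genes in each EV shNC, dHLH-Bmal1 shNC and WT-Bmal1 shNC library, as log2 of CPM plus 0.1 (y axis), 1 column a gene and 1 point a library. Points of 1 group lie close together. Sox10 and Ngfr lie lower and Col1a1, Bgn and Ankrd1 higher in dHLH-Bmal1 shNC than in EV shNC.

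Clock genes changed in both directions. Of the 18 clock genes tested in the 4 lists of activators, repressors, nuclear receptors and outputs, 4 rose and 3 fell, shares near the 17.2% of all genes on each side. Arntl was the 1 of 3 activators that rose, with the lost calls given above. Its partner Clock was at 50.2 and 46.4 CPM in EV shNC and 58.3 and 56.4 CPM in dHLH-Bmal1 shNC, a difference that did not pass the test (0.25 ± 0.12, edgeR adjusted p = 0.131). Arntl2, a second gene of the Bmal1 type, did not pass either (0.73 ± 0.42, edgeR adjusted p = 0.205). Of the 6 repressors, Cry1 and Cry2 rose and 4 did not pass, with a median of 0.20. Cry1, a cryptochrome that blocks Clock-Bmal1, was at 18.3 and 19.1 CPM in EV shNC and 32.2 and 32.8 CPM in dHLH-Bmal1 shNC, with tight replicates and no overlap (0.798 ± 0.16, edgeR adjusted p = 7.42e-04). Cry2 went from 16.6 and 14.5 CPM to 20.7 and 30.2 CPM (0.68 ± 0.19, edgeR adjusted p = 0.0108), and its 2 dHLH-Bmal1 libraries lay apart from each other. The Cry2 call was lost without EV shNC replicate 2 (edgeR adjusted p = 0.0996) and without dHLH-Bmal1 shNC replicate 2 (edgeR adjusted p = 0.164). Per1 (-0.29 ± 0.36, edgeR adjusted p = 0.576) and Ciart (-0.44 ± 0.36, edgeR adjusted p = 0.366) did not pass. Per2 and Per3, the other period repressors, pointed to opposite sides. Per2 was at 4.68 and 4.14 CPM in EV shNC and 5.699 and 9.59 CPM in dHLH-Bmal1 shNC (0.75 ± 0.32, edgeR adjusted p = 0.0848). Per3 was at 16.6 and 11.9 CPM in EV shNC and 12.1 and 7.36 CPM in dHLH-Bmal1 shNC (-0.48 ± 0.24, edgeR adjusted p = 0.1297). Without dHLH-Bmal1 shNC replicate 1 both passed, Per2 as higher (edgeR adjusted p = 0.0352) and Per3 as lower (edgeR adjusted p = 0.0316).

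In the nuclear receptor loop 1 of 5 genes rose and 2 fell. Nr1d1, the receptor REV-ERB alpha and a direct Clock-Bmal1 target, was at 8.41 and 10.8 CPM in EV shNC and 3.87 and 4.16 CPM in dHLH-Bmal1 shNC. The libraries did not overlap and Nr1d1 fell (-1.27 ± 0.27, edgeR adjusted p = 0.00133). Its relative Nr1d2 was at 33.9 and 35.7 and 26.5 and 30.5 CPM and did not pass (-0.301 ± 0.13, edgeR adjusted p = 0.0916). Rorb, a receptor of the ROR family that acts on the same sites, fell from 163 and 168 CPM to 38.9 and 37.4 CPM (-2.11 ± 0.102, edgeR adjusted p = 8.83e-11), while Rora did not pass (-0.12 ± 0.19, edgeR adjusted p = 0.681). Nfil3, a repressor that competes with Dbp, rose from 13.9 and 13.7 CPM to 24.4 and 18.7 CPM (0.66 ± 0.197, edgeR adjusted p = 0.0154). The Nfil3 call was lost without EV shNC replicate 1 (edgeR adjusted p = 0.0744), EV shNC replicate 2 (0.0853) or dHLH-Bmal1 shNC replicate 1 (0.233), which left no gene of the loop higher. Of 4 outputs, 1 fell and 3 did not pass. Dbp, the output most used as a readout of Clock-Bmal1, was at 12.3 and 8.72 CPM in EV shNC and 10.4 and 10.6 CPM in dHLH-Bmal1 shNC, so the dHLH-Bmal1 libraries lay between the EV libraries (0.0059 ± 0.24, edgeR adjusted p = 0.989). Tef (0.033 ± 0.14, edgeR adjusted p = 0.887) and Bhlhe41 (-0.12 ± 0.195, edgeR adjusted p = 0.679) did not pass. Bhlhe40, a repressor that binds E-boxes, fell from 36.8 and 35.2 CPM to 19.5 and 23.5 CPM (-0.76 ± 0.15, edgeR adjusted p = 9.04e-04). The plot of clock genes sets these differences beside those in other YUMM2.1 cells.

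**Figure D2:**
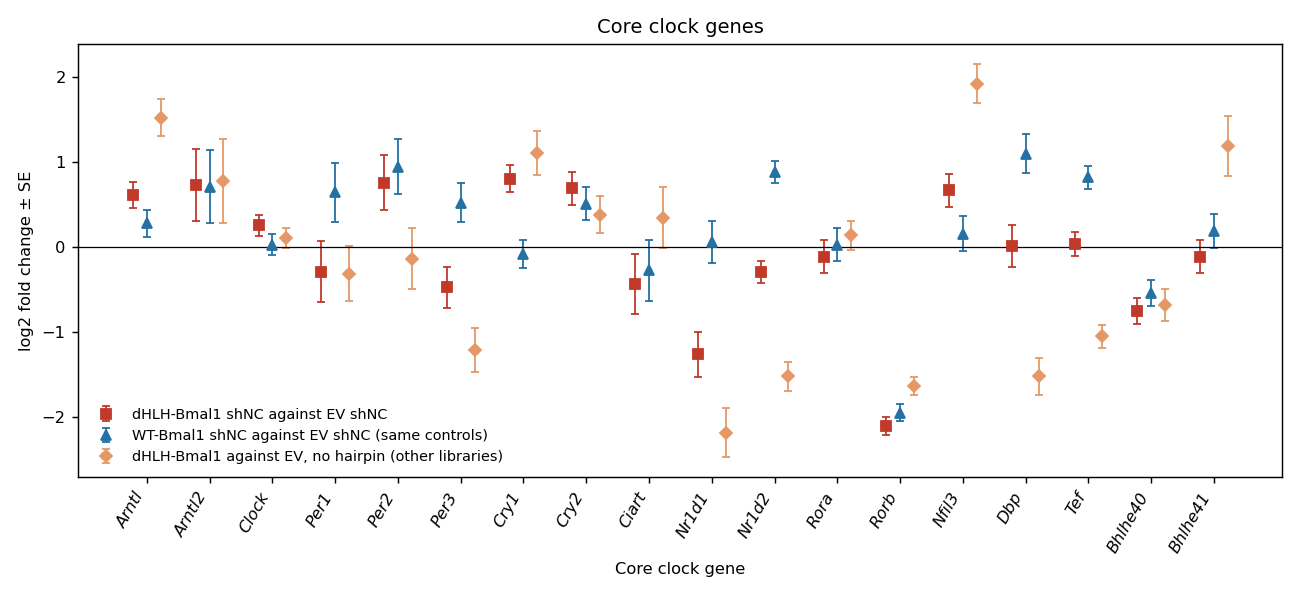
Log2 fold change over EV (y axis) with its standard error (bars) for each clock gene (x axis). It is shown for dHLH-Bmal1 shNC and WT-Bmal1 shNC, which share the EV shNC libraries, and for dHLH-Bmal1 over EV with no hairpin. Dbp and Tef lie near 0 for dHLH-Bmal1 shNC, above 0 for WT-Bmal1 shNC and below 0 for dHLH-Bmal1 with no hairpin.

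The promoters of 3 clock genes, 1 that rose and 2 that did not pass, show the E-box that Clock-Bmal1 binds. They are the 250 bases before the RefSeq start on GRCm38.p6, read 5′ to 3′ on the gene's strand, with each CACGTG in capitals. They are Cry1 (chr10:85185055-85185304, minus strand), Tef at 1 of its 2 starts (chr15:81802423-81802672, plus strand) and Ciart (chr3:95882229-95882478, minus strand). The first E-box starts 60 bases before the start of Cry1, 127 before that of Tef and 116 before that of Ciart, which has 3.
Cry1: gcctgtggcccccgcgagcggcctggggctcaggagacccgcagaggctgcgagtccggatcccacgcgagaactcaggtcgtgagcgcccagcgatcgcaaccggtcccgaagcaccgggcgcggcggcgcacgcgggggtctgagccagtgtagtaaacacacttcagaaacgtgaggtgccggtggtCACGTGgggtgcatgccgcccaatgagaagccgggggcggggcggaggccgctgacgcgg
Tef: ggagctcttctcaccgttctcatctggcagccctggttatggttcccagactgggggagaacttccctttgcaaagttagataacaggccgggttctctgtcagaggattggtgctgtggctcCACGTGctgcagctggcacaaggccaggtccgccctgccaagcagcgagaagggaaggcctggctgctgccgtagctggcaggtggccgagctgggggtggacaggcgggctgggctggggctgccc
Ciart: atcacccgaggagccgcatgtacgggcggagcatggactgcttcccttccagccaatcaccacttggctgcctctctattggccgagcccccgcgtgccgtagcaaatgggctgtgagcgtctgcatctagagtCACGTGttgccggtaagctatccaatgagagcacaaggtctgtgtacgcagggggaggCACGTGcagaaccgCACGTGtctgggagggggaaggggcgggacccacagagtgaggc
CACGTG, which reads the same on both strands, stood in 5 of the 16 clock genes that have a RefSeq promoter, Bhlhe41, Ciart, Cry1, Per1 and Tef. By promoter this was 6 of 22 (27.3%), against 6.02% of 32851 promoters of this length. Of these 16 genes, 1 of 4 that rose, 0 of 2 that fell and 4 of 10 that did not pass held it. Dbp, Nr1d1, Nr1d2 and Per3 did not hold it in this window. Sequence outside the 250 bases was not searched, here or for the sites below, so genes without a match may hold one elsewhere.

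Genes of the melanocyte and Schwann cell side of the lineage were among the falls. Sox10, the transcription factor that holds cells in the melanocyte lineage (chromosome 15, 79154908 to 79165240), was at 321 and 325 CPM in EV shNC and 22.2 and 25.7 CPM in dHLH-Bmal1 shNC. The groups were far apart and Sox10 fell (-3.77 ± 0.11, edgeR adjusted p = 1.30e-13). Of 12 melanocyte genes tested from a list of 26, 5 fell and 7 did not pass, with a median of -0.27. Erbb3, a neuregulin receptor that Sox10 drives, went from 38.9 and 32.3 CPM to 2.85 and 2.398 CPM (-3.72 ± 0.28, edgeR adjusted p = 2.47e-08). Cdh19, a cadherin of neural crest glia, fell as well (-2.96 ± 0.21, edgeR adjusted p = 1.19e-08). Mitf, the master factor of pigment cells, was at 15.9 and 14.2 CPM in EV shNC and 17.8 and 17.7 CPM in dHLH-Bmal1 shNC and did not pass (0.25 ± 0.18, edgeR adjusted p = 0.305). The pigment genes themselves were at or near 0 in all 4 libraries: Tyrp1, Dct and Mlana had no count, Pmel had 1 count and Tyr at most 4 in a library. Sox10 and Mitf were thus detected in both groups of the labelled melanoma cells, while these 5 pigment genes were at or near 0. Other genes of the list, named after their values were seen, could be tested. Gpnmb, a melanosome glycoprotein, fell by little (-0.299), a call lost without EV shNC replicate 2 (edgeR adjusted p = 0.186) or dHLH-Bmal1 shNC replicate 1 (0.0905) or 2 (0.126), and Mlph (-0.237), Rab27a (0.299) and Mc1r (-0.351) did not pass.

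Among 22 factors of the mesenchymal and neural crest-like states, 14 rose and 5 fell, with a median of 0.81. The lower count became 3 whichever of the 4 libraries was left out. Sox9, a neural crest factor that is high in undifferentiated melanoma (chromosome 11, 112782224 to 112787760), was at 115 and 112 CPM in EV shNC and 325 and 329 CPM in dHLH-Bmal1 shNC (1.53 ± 0.092, edgeR adjusted p = 1.71e-09). Sox9 and Sox10 thus moved to opposite sides, each with replicates far closer to each other than to the other group. Klf4, a zinc finger factor of plastic cell states, rose from 101.1 and 93.7 CPM to 626 and 688 CPM (2.75 ± 0.093, edgeR adjusted p = 1.04e-12). Snai2, the EMT factor Slug, rose from 15.4 and 18.96 CPM to 87.1 and 82.3 CPM (2.301 ± 0.15, edgeR adjusted p = 3.82e-09). The homeobox factor Prrx2 was at 2.28 and 2.397 CPM in EV shNC and 29.2 and 25.6 CPM in dHLH-Bmal1 shNC (3.55 ± 0.25, edgeR adjusted p = 1.06e-08). These are rises from different starting levels, in each case with no overlap of the groups. Axl, a receptor tyrosine kinase linked to drug resistance, rose by less, from 618 and 590.4 CPM to 924 and 959 CPM (0.64 ± 0.077, edgeR adjusted p = 5.43e-06). Twist2, another EMT factor, rose too (0.97 ± 0.26, edgeR adjusted p = 0.00734), a call that was lost with all 40 libraries in 1 fit (edgeR adjusted p = 0.118). Lmo1, a LIM-domain cofactor, was at 2.64 and 2.72 CPM in EV shNC and 6.04 and 5.76 CPM in dHLH-Bmal1 shNC (1.14 ± 0.34, edgeR adjusted p = 0.0146). Its call was lost without EV shNC replicate 1 (edgeR adjusted p = 0.0718), EV shNC replicate 2 (0.0662) or dHLH-Bmal1 shNC replicate 1 (0.0792). The Lmo1 call was also lost in DESeq2 (Wald test adjusted p = 0.0558) and with all 40 libraries in 1 fit (edgeR adjusted p = 0.202). With Fn1 and Col1a1 below, these genes make up the 9 by which the study described a mesenchymal state in the cells with no hairpin. In the fit used here 9 of 9 rose, Twist2 and Lmo1 with the lost calls given. The list was chosen by the study from other libraries of this line and is no random sample of genes.

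Genes linked to the neural crest-like state went both ways. Of the same list of 22, Ngfr, Foxd3 and Nes fell, while the water channel Aqp1 (2.46) and the factor Tfap2b (0.49), named after their values were seen, rose. The Tfap2b call was lost without EV shNC replicate 1 (edgeR adjusted p = 0.0595) and with all 40 libraries in 1 fit (0.107). Ngfr, the nerve growth factor receptor and the usual marker of the neural crest-like state, was at 509 and 497 CPM in EV shNC and 46.6 and 55.96 CPM in dHLH-Bmal1 shNC, with no overlap (-3.31 ± 0.104, edgeR adjusted p = 4.36e-13). Foxd3, a neural crest factor, went from 17.3 and 11.6 CPM to 3.26 and 3.68 CPM (-2.07 ± 0.295, edgeR adjusted p = 3.75e-05). Nes, the intermediate filament nestin of progenitor cells, fell by less (-0.83 ± 0.084, edgeR adjusted p = 7.66e-07). On the other side, the ligand Wnt5a rose from 1.44 and 1.31 CPM to 9.702 and 7.99 CPM (2.69 ± 0.42, edgeR adjusted p = 8.70e-05) and the receptor Pdgfrb from 2.28 and 1.53 CPM to 12.8 and 8.95 CPM (2.53 ± 0.38, edgeR adjusted p = 6.77e-05).

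**Figure D3:**
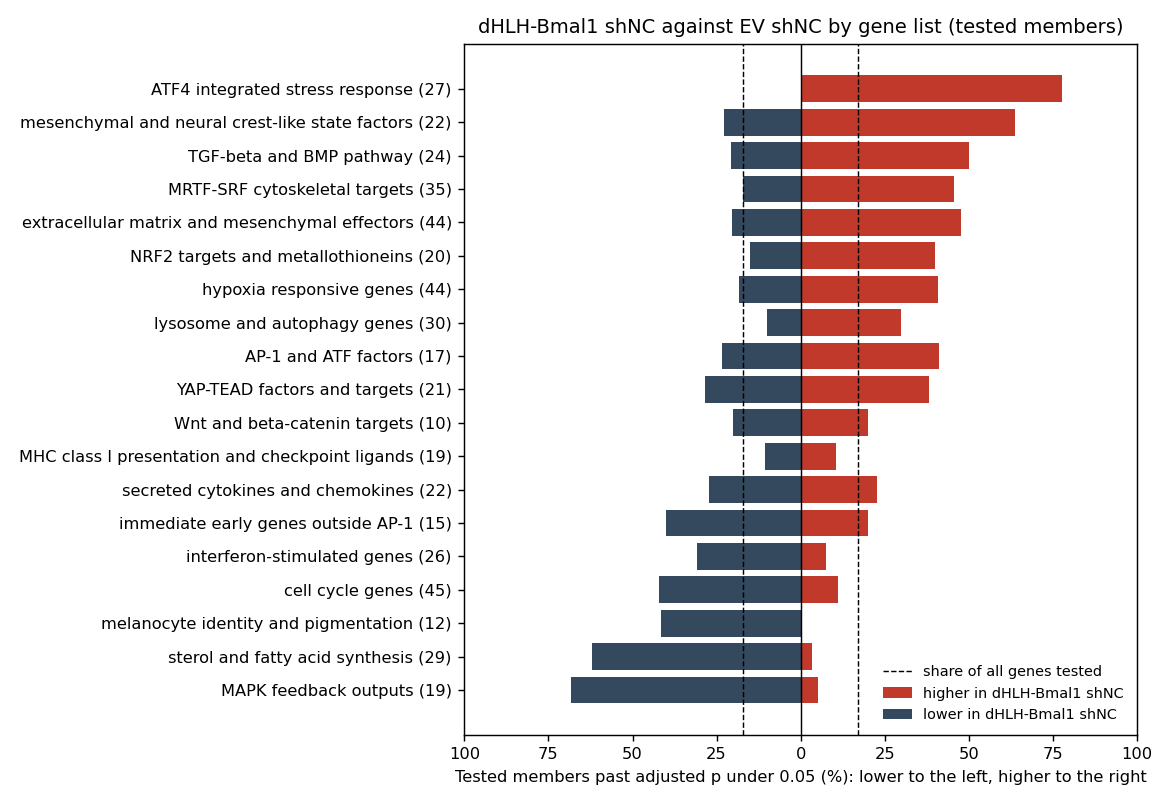
Share of the tested members of each gene list (y axis) that were lower (bars to the left) or higher (bars to the right) in dHLH-Bmal1 shNC than in EV shNC at an edgeR adjusted p under 0.05, in percent (x axis). The dashed lines mark the share over all genes, 17.2% on each side; in the ATF4 list 21 of 27 members were higher and in the MAPK list 13 of 19 were lower.

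Extracellular matrix genes changed in both directions. Of 44 tested from a list of 52, 21 rose (47.7%) and 9 fell (20.5%), with a median of 0.23. The share that fell was near the 17.2% of all genes. Col1a1, a chain of the main fibrillar collagen, had 15 and 19 counts in EV shNC and 2860 and 1113 in dHLH-Bmal1 shNC, that is 1.802 and 2.07 and 194 and 178 CPM. It was close to off in one group and well expressed in both libraries of the other (6.57 ± 0.18, edgeR adjusted p = 1.15e-13). Its partner chain Col1a2 went from 2.76 and 1.85 CPM to 107 and 99.5 CPM (5.48 ± 0.23, edgeR adjusted p = 1.65e-11). The proteoglycan Bgn, biglycan, went from 7.33 and 4.904 CPM to 348 and 348 CPM (5.84 ± 0.15, edgeR adjusted p = 8.17e-14) and the microfibril protein Fbn1 from 0.601 and 0.763 CPM to 21.7 and 19.2 CPM (4.88 ± 0.35, edgeR adjusted p = 1.43e-08). Fn1, fibronectin, was present in both groups and rose from 182 and 182 CPM to 585 and 624 CPM (1.73 ± 0.086, edgeR adjusted p = 1.27e-10). Col3a1, another fibrillar collagen, did likewise (1.24 ± 0.10, edgeR adjusted p = 4.03e-08). Timp3, an inhibitor of metalloproteinases that is held in the matrix, rose from 42.2 and 45.99 CPM to 372 and 402 CPM (3.13 ± 0.11, edgeR adjusted p = 1.46e-12). The falls were as clear. Col11a1, a minor fibrillar collagen of cartilage, went from 119.6 and 113 CPM to 11.3 and 10.4 CPM (-3.41 ± 0.13, edgeR adjusted p = 4.23e-12), and the integrin Itgb3 from 40.7 and 38.4 CPM to 6.31 and 5.596 CPM (-2.71 ± 0.19, edgeR adjusted p = 1.19e-08). Postn, periostin, a protein of activated stroma, also fell (-2.14 ± 0.16, edgeR adjusted p = 1.71e-08). Fibroblast markers overlap with this group. Of 9 on the list, 3 could be tested, Pdgfrb and Col3a1 rose and Pdgfra fell, a call lost with any 1 library left out, and the summed level of the list was 188 and 157 CPM in EV shNC and 404 and 406 CPM in dHLH-Bmal1 shNC. The part of other cells in the matrix changes was not tested.

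Targets of SRF and its coactivators, the MRTFs, build the contractile cytoskeleton. Of 35 tested, 16 rose (45.7%) and 6 fell (17.1%), with a median of 0.22. The share that fell was that of all genes, 17.2%. Srf itself was at 31.2 and 34.4 CPM in EV shNC and 58.1 and 58.7 CPM in dHLH-Bmal1 shNC and rose (0.83 ± 0.12, edgeR adjusted p = 5.33e-05). Of the coactivators, Mrtfa did not pass (0.12 ± 0.21, edgeR adjusted p = 0.702). Mrtfb rose by little (0.399 ± 0.12, edgeR adjusted p = 0.01298), and its call was lost without EV shNC replicate 2 (edgeR adjusted p = 0.150) and without dHLH-Bmal1 shNC replicate 2 (edgeR adjusted p = 0.0903). Cnn2, a calponin that binds actin, went from 50.4 and 43.5 CPM to 118 and 111 CPM (1.29 ± 0.12, edgeR adjusted p = 3.67e-07). Some targets were nearly silent in EV shNC. Acta2, smooth muscle actin, had 0 and 0 counts in EV shNC and 25 and 23 in dHLH-Bmal1 shNC, at least 7.82-fold higher when each EV library is set at 3 counts. Tpm2, a tropomyosin, had 3 and 0 counts against 68 and 40, a ratio of CPM of 30.01 (95% exact counting interval 10.0002 to 147.8), which covers counting error only. Fhl2, a LIM protein of the cytoskeleton, had 2 and 2 counts against 64 and 30 (4.23 ± 0.75, edgeR adjusted p = 3.15e-04). Falls were seen for the collagen receptor Itga1, from 65.3 and 75.1 CPM to 8.35 and 7.84 CPM (-3.11 ± 0.16, edgeR adjusted p = 1.84e-10), for the actin oxidase Mical2 (-0.59 ± 0.11, edgeR adjusted p = 5.46e-04) and for the actin crosslinker Actn4 (-0.33 ± 0.080, edgeR adjusted p = 0.00383), whose call was lost with all 40 libraries in 1 fit (edgeR adjusted p = 0.149).

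The sites that SRF binds, CArG boxes, are shown for Srf and Cnn2, which both rose. The windows are again the 250 bases before the RefSeq start on GRCm38.p6, Srf at chr17:46556163-46556412, minus strand and Cnn2 at chr10:79988350-79988599, plus strand, with each CArG box in capitals. The first box starts 82 bases before the start of Srf, which has 2, and 56 before that of Cnn2.
Srf: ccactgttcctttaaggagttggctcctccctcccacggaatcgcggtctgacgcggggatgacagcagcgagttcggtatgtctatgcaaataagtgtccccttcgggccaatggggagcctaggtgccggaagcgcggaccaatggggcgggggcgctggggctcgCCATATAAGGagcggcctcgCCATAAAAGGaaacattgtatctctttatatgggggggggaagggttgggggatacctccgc
Cnn2: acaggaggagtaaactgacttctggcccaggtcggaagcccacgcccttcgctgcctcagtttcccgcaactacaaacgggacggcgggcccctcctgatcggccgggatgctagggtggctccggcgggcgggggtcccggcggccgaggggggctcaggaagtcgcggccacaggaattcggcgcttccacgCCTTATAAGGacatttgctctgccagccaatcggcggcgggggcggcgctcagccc
A CArG box on either strand stood in 8 of the 34 genes of the list that have a RefSeq promoter, 4 of 16 that rose, 0 of 6 that fell and 4 of 12 that did not pass. By promoter this was 9 of 44 (20.5%), against 1.47% of all 32851 promoters.

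Genes of the YAP pathway, which answers to tension and cell shape, went both ways. Of 21 tested, 8 were higher (38.1%) and 6 lower (28.6%), against 17.2% of all genes on each side. The higher count was 5 without EV shNC replicate 2 or either dHLH-Bmal1 shNC library. Ankrd1, the most used YAP target, was at 4.804 and 4.58 CPM in EV shNC and 73.5 and 73.7 CPM in dHLH-Bmal1 shNC (3.97 ± 0.16, edgeR adjusted p = 1.05e-11). Ccn1, a secreted matricellular target, rose from 1.44 and 1.85 CPM to 10.99 and 8.63 CPM (2.57 ± 0.38, edgeR adjusted p = 5.55e-05). Among the factors themselves, 4 fell, each by less than 1 on the log2 scale, Tead3 rose (1.78) and Tead2 did not pass (-0.595), these last being named after their values were seen. The Tead3 call was lost without EV shNC replicate 2 (edgeR adjusted p = 0.282) or dHLH-Bmal1 shNC replicate 1 (0.197) or 2 (0.0801), and in DESeq2 (0.0829). Tead1, the DNA-binding partner, went from 239 and 242 CPM to 164 and 161 CPM (-0.57 ± 0.088, edgeR adjusted p = 8.17e-05), and Wwtr1, the coactivator TAZ, from 272 and 273 CPM to 183 and 185 CPM (-0.57 ± 0.093, edgeR adjusted p = 1.47e-04).

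AP-1 is a dimer of Jun, Fos and ATF proteins, and its members did not move as a block. Of 17 AP-1 and ATF factors tested, 7 rose and 4 fell, and the lower count was 2 without EV shNC replicate 1 or either dHLH-Bmal1 shNC library. Jund went from 69.2 and 64.1 CPM to 171 and 161 CPM (1.32 ± 0.10, edgeR adjusted p = 1.79e-08) and Junb from 23.7 and 21.03 CPM to 43.2 and 49.1 CPM (1.04 ± 0.14, edgeR adjusted p = 2.60e-05). Jdp2, a repressing partner of Jun, rose alike (1.32 ± 0.15, edgeR adjusted p = 2.61e-06). Jun itself fell, from 214 and 213 CPM to 149 and 140.2 CPM (-0.56 ± 0.10, edgeR adjusted p = 2.10e-04), as did Fosl1, the Fos family member Fra-1, from 82.9 and 79.01 CPM to 50.005 and 40.1 CPM (-0.83 ± 0.14, edgeR adjusted p = 2.47e-04). So within the Jun family 1 member was lower and 2 were higher, with no overlap of libraries for any of them. Fos was at most 14 counts in a library and did not pass (-1.86 ± 0.93, edgeR adjusted p = 0.139). Of the ATF factors, Atf5 rose most, from 69.9 and 77.8 CPM to 226 and 277 CPM (1.76 ± 0.12, edgeR adjusted p = 1.03e-08). Among immediate early genes outside AP-1, 3 of 15 rose (20%) and 6 fell (40%). The share that rose was near the 17.2% of all genes on each side. The orphan receptor Nr4a1 went from 20.9 and 17.7 CPM to 1.97 and 1.44 CPM (-3.43 ± 0.34, edgeR adjusted p = 5.31e-07) and Nr4a2 from 42.998 and 47.3 CPM to 16.96 and 25.4 CPM (-1.13 ± 0.17, edgeR adjusted p = 8.02e-05). Ier3 fell too (-1.11 ± 0.101, edgeR adjusted p = 2.38e-07), while the phosphatase Dusp1 rose (1.49 ± 0.23, edgeR adjusted p = 9.44e-05).

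Most of the genes that report ERK signalling and damp it were lower. Of 19 tested, 13 fell and 1 rose, with a median of -0.63, and the 1 that rose was lost without EV shNC replicate 2. Dusp6, the phosphatase that removes phosphate from ERK, was at 240.1 and 223 CPM in EV shNC and 58.6 and 57.4 CPM in dHLH-Bmal1 shNC (-1.995 ± 0.15, edgeR adjusted p = 3.37e-08). Etv5, an ETS factor that ERK induces, went from 127 and 114 CPM to 43.7 and 41.6 CPM (-1.496 ± 0.11, edgeR adjusted p = 2.12e-08), and Phlda1 from 283 and 268 CPM to 89.1 and 108 CPM (-1.49 ± 0.12, edgeR adjusted p = 4.23e-08). Ccnd1, cyclin D1, which starts the cell cycle downstream of ERK, went from 5087 and 4796 CPM to 2745 and 2575 CPM (-0.89 ± 0.079, edgeR adjusted p = 1.53e-07). In all 4 the libraries of a group lay close and the groups apart.

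In the Wnt list, 2 of 10 genes rose and 2 fell, near the share of all genes, and the higher count was 1 without EV shNC replicate 1 or either dHLH-Bmal1 shNC library. Tcf7l2, a factor that carries beta-catenin to DNA, rose (1.02 ± 0.11, edgeR adjusted p = 2.15e-06). Nkd2, a feedback inhibitor, fell from 129.7 and 129 CPM to 10.4 and 17.9 CPM (-3.29 ± 0.17, edgeR adjusted p = 1.63e-10), as did Lgr5, the R-spondin receptor (-2.26 ± 0.28, edgeR adjusted p = 8.53e-06). In the TGF-beta and BMP list 12 of 24 rose and 5 fell, with a median of 0.61. The lower count was 3 whichever of the 4 libraries was left out. The activin subunit Inhbb had 8 and 8 counts in EV shNC and 269 and 111 in dHLH-Bmal1 shNC, 0.961 and 0.872 and 18.3 and 17.7 CPM (4.28 ± 0.36, edgeR adjusted p = 1.06e-07). Fstl1, a secreted follistatin-like protein, went from 13.8 and 15.8 CPM to 231 and 244 CPM (3.998 ± 0.12, edgeR adjusted p = 2.90e-13). Of the TGF-beta ligands, Tgfb3 rose (1.56 ± 0.29, edgeR adjusted p = 5.06e-04). Both Tgfb1 (-1.15) and Tgfb2 (-1.04 ± 0.203, edgeR adjusted p = 7.59e-04) fell.

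Hypoxia responsive genes changed in both directions. Of 44 tested, 18 rose (40.9%) and 8 fell (18.2%), with a median of 0.20. The share that fell was near the 17.2% of all genes. Without dHLH-Bmal1 shNC replicate 2 the higher count was 11, and the lower count was 5 without either dHLH-Bmal1 shNC library. Hif1a, the oxygen-regulated factor, was at 115 and 105 CPM in EV shNC and 112 and 111 CPM in dHLH-Bmal1 shNC and did not pass (0.025 ± 0.10, edgeR adjusted p = 0.876). Car9, a carbonic anhydrase and a standard marker of hypoxia, rose from 2.402 and 2.18 CPM to 12.5 and 10.1 CPM (2.31 ± 0.37, edgeR adjusted p = 1.32e-04). Ndrg1 went from 15.3 and 15.7 CPM to 69.3 and 69.9 CPM (2.17 ± 0.14, edgeR adjusted p = 3.50e-09), and Egln3, an oxygen sensor that marks Hif for breakdown, from 10.8 and 6.32 CPM to 28.4 and 30.5 CPM (1.78 ± 0.21, edgeR adjusted p = 4.89e-06). Vegfa, the angiogenic ligand, rose from 29.9 and 32.04 CPM to 49.4 and 54.05 CPM (0.73 ± 0.14, edgeR adjusted p = 5.15e-04). Enzymes of glycolysis were among the falls. Hk2, the first enzyme, went from 190.5 and 176 CPM to 88.5 and 103 CPM (-0.94 ± 0.11, edgeR adjusted p = 4.15e-06), and Tpi1 from 688 and 625 CPM to 389 and 356 CPM (-0.82 ± 0.12, edgeR adjusted p = 3.58e-05). Of the 8 that fell, 6 encode enzymes of glycolysis, and Gapdh, Pgam1 and Pkm of the same pathway rose; these were counted after the values were seen. The Gapdh call was lost without EV shNC replicate 2 or dHLH-Bmal1 shNC replicate 2 (edgeR adjusted p = 0.0826 and 0.113), and that of Pgam1 without EV shNC replicate 1 (0.101), EV shNC replicate 2 (0.0517) or dHLH-Bmal1 shNC replicate 2 (0.1605).

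Most tested genes of the ATF4 program, by which cells answer a shortage of amino acids or stress in the endoplasmic reticulum, rose. Of 27 genes tested, 21 rose and 6 did not pass, with a median of 0.78. With 1 library left out the higher count lay between 18 and 19. Atf4 itself was at 366 and 384 CPM in EV shNC and 626 and 660.4 CPM in dHLH-Bmal1 shNC (0.78 ± 0.093, edgeR adjusted p = 5.23e-06). Nupr1, a small stress protein, went from 10.4 and 10.5 CPM to 81.1 and 81.7 CPM, close to equal within each group (2.96 ± 0.13, edgeR adjusted p = 3.81e-11). The pseudokinase Trib3 went from 34.5 and 36.9 CPM to 116 and 112 CPM (1.67 ± 0.13, edgeR adjusted p = 2.68e-08). Cth, which makes cysteine, went from 3.003 and 4.25 CPM to 17.7 and 25.1 CPM (2.53 ± 0.26, edgeR adjusted p = 8.62e-07), and the secreted protein Stc2, also on the hypoxia list, rose (2.19 ± 0.35, edgeR adjusted p = 1.13e-04). The Nupr1 promoter, 250 bases before the RefSeq start on GRCm38.p6 (chr7:126625471-126625720, minus strand), is shown for the ATF4 site TGATGNAA, which stands here on the other strand, in capitals, 110 bases before the start.
Nupr1: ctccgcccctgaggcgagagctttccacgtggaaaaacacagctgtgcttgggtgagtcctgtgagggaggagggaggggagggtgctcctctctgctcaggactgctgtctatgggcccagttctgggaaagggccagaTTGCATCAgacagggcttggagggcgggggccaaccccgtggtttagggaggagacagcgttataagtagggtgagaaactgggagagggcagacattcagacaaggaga
TGATGNAA on either strand stood in 5 of the 23 genes of the list that have a RefSeq promoter, 4 of 18 that rose and 1 of 5 that did not pass. By promoter this was 5 of 28 (17.9%), against 3.45% of all 32851 promoters.

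Most genes of lipid synthesis fell. Of 29 genes of sterol and fatty acid synthesis, 18 fell and 1 rose, with a median of -0.42, and the 1 that rose was lost without EV shNC replicate 2 or dHLH-Bmal1 shNC replicate 2. With 1 library left out the lower count lay between 12 and 14. Fasn, fatty acid synthase, went from 383 and 369 CPM to 158 and 161 CPM (-1.24 ± 0.091, edgeR adjusted p = 1.84e-08). Dhcr7, a late enzyme of cholesterol synthesis, went from 27.6 and 23.2 CPM to 10.7 and 8.79 CPM (-1.35 ± 0.21, edgeR adjusted p = 8.21e-05). Srebf1, a factor that drives these enzymes, fell as well (-1.54 ± 0.27, edgeR adjusted p = 2.43e-04), a call that was lost with all 40 libraries in 1 fit (edgeR adjusted p = 0.118).

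Of 20 NRF2 targets and metallothioneins, 8 rose (40%) and 3 fell (15%), against 17.2% of all genes on each side. Fewer were higher without EV shNC replicate 1 or dHLH-Bmal1 shNC replicate 2. Mt2, a metallothionein that binds zinc, went from 51.8 and 56.9 CPM to 385 and 423 CPM (2.89 ± 0.102, edgeR adjusted p = 1.70e-12), and Gstm1, a glutathione transferase, from 9.97 and 12.9 CPM to 41.6 and 44.1 CPM (1.900 ± 0.16, edgeR adjusted p = 1.01e-07). Txnrd1, thioredoxin reductase and a classical NRF2 target, fell instead (-0.91 ± 0.11, edgeR adjusted p = 3.62e-06). Of 30 lysosome and autophagy genes, 9 rose (30%) and 3 fell (10%), against 17.2% of all genes on each side. Fewer of them were higher without dHLH-Bmal1 shNC replicate 2. Grn, progranulin, and the membrane protein Lamp1 rose (0.98 ± 0.101, edgeR adjusted p = 1.00e-06 and 0.697 ± 0.11, edgeR adjusted p = 1.19e-04), while the cholesterol exporter Npc1 fell (-0.75 ± 0.11, edgeR adjusted p = 7.07e-05).

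Cell cycle genes were more often lower than higher. Of 45 tested, 19 fell and 5 rose, with a median of -0.26, and without EV shNC replicate 1 the lower count was 12. Rrm2, a subunit of ribonucleotide reductase, went from 107 and 94.6 CPM to 42.3 and 42.4 CPM (-1.25 ± 0.11, edgeR adjusted p = 1.01e-07), and the phosphatase Cdc25a from 71.9 and 68.5 CPM to 30.5 and 24.9 CPM (-1.32 ± 0.13, edgeR adjusted p = 4.91e-07). Mki67, the proliferation marker, fell by little, from 502 and 533 CPM to 442 and 422 CPM (-0.26 ± 0.085, edgeR adjusted p = 0.0248). That call did not hold when a library was left out, with edgeR adjusted p = 0.0507 and 0.158 without EV shNC replicates 1 and 2 and 0.0792 and 0.170 without dHLH-Bmal1 shNC replicates 1 and 2. E2f2, an E2F activator, rose from 39.03 and 37.4 CPM to 98.1 and 98.7 CPM (1.36 ± 0.11, edgeR adjusted p = 4.38e-08).

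Among genes of secreted immune mediators 5 of 22 rose (22.7%) and 6 fell (27.3%), against 17.2% of all genes on each side. Csf1, the growth factor of macrophages, was at 21.7 and 27.1 CPM in EV shNC and 83.2 and 76.8 CPM in dHLH-Bmal1 shNC (1.71 ± 0.14, edgeR adjusted p = 4.73e-08). Cxcl12, a chemokine of stroma, had 0 and 0 counts in EV shNC and 83 and 41 in dHLH-Bmal1 shNC, at least 17.7-fold higher with each EV library set at 3 counts. Il33, an alarmin, fell from 286 and 292 CPM to 68.7 and 63.3 CPM (-2.13 ± 0.10, edgeR adjusted p = 5.54e-11). Cxcl10, the chemokine that interferon induces to draw T cells, fell from 10.1 and 6.87 CPM to 1.49 and 1.12 CPM (-2.63 ± 0.42, edgeR adjusted p = 1.15e-04), and Igf1 fell from 51.05 and 53.6 CPM to 15.1 and 17.4 CPM (-1.701 ± 0.15, edgeR adjusted p = 1.35e-07).

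Of the genes of antigen presentation that could be tested, 10.5% rose and 10.5% fell, against 17.2% of all genes on each side. The list held 25 genes, and Tap1, Tap2, Psmb8, Psmb9, Nlrc5 and Pdcd1lg2 had too few counts to be tested. Of 19 genes of MHC class I presentation and checkpoint ligands, 2 rose and 2 fell, and the higher count was 1 without EV shNC replicate 1 or dHLH-Bmal1 shNC replicate 2. B2m, the light chain of MHC class I, was at 357 and 417 CPM in EV shNC and 448 and 488 CPM in dHLH-Bmal1 shNC and did not pass (0.27 ± 0.13, edgeR adjusted p = 0.114). Cd274, the checkpoint ligand PD-L1, had 11 and 13 counts in EV shNC and 41 and 19 in dHLH-Bmal1 shNC, and no difference was detectable at this depth (1.07 ± 0.58, edgeR adjusted p = 0.167). Tapbpl, a peptide editor, fell from 324 and 417 CPM to 147 and 170.3 CPM (-1.23 ± 0.13, edgeR adjusted p = 2.04e-06). Of 26 interferon-stimulated genes, 8 fell and 2 rose, with a median of -0.28. This list was unstable, since leaving out EV shNC replicates 1 and 2 in turn left 3 and 4 lower and leaving out either dHLH-Bmal1 shNC library left 5, with at most 1 higher in each case. Rsad2, viperin, had 21 and 31 counts in EV shNC and 0 and 0 in dHLH-Bmal1 shNC, at least 8.64-fold lower with each dHLH-Bmal1 library set at 3 counts.

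Markers of other cell types were mostly at or near 0. Of 17 immune markers 1 could be tested, and it did not pass; Ptprc, the pan-leukocyte marker CD45, had 1 count in 1 of the 4 libraries and the T cell marker Cd3e had none. Their summed level was 3.72 and 1.199 CPM in EV shNC and 0.882 and 1.44 CPM in dHLH-Bmal1 shNC. Of 8 endothelial markers 2 could be tested and 1 rose, Cdh5, from 3.48 and 2.07 CPM to 7.87 and 7.84 CPM (1.51 ± 0.300, edgeR adjusted p = 8.78e-04), with a summed level of the list of 9.73 and 7.74 CPM against 14.2 and 16.3 CPM. Of 9 epithelial markers 3 could be tested and 2 rose, with a summed level of 0.480 and 0.654 CPM against 4.82 and 4.80 CPM, and Epcam was at 0 in all 4 libraries. Krt19, a keratin, had 1 and 0 counts in EV shNC and 34 and 12 in dHLH-Bmal1 shNC, a ratio of CPM of 38.4 (95% exact counting interval 6.55 to 1547). Its relative Krt8 had 0 and 0 counts against 21 and 8, at least 3.93-fold higher with each EV library set at 3 counts, and was not called without EV shNC replicate 1 (edgeR adjusted p = 0.0755) or 2 (edgeR adjusted p = 0.0803) and fell under the filter without dHLH-Bmal1 shNC replicate 1. What part other cells had in any change was not tested.

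Many of the largest changes over the whole genome were of genes silent in one group. In 49 called genes both EV shNC libraries were at 0, and in 31 both dHLH-Bmal1 shNC libraries were. Nlrp2, a NOD-like receptor, had 0 and 0 counts in EV shNC and 72 and 47 in dHLH-Bmal1 shNC, at least 18.04-fold higher against the same floor of 3 counts in each library. The gelatinase Mmp9 had 0 and 0 counts against 57 and 26, at least 11.7-fold higher. In the other direction, Slc19a1, the reduced folate carrier, had 27 and 25 counts in EV shNC and 0 and 0 in dHLH-Bmal1 shNC, at least 8.73-fold lower, and the glycosyltransferase Galnt12 had 23 and 17 against 0 and 0, at least 6.75-fold lower. Mfsd2a, a lipid transporter, had 45 and 61 counts in EV shNC and 1 and 0 in dHLH-Bmal1 shNC, so EV shNC stood higher by a ratio of 127 (95% exact counting interval 22.3 to 5068). B3galt5, another glycosyltransferase, had 48 and 52 against 1 and 0, a ratio of 119.9 (95% exact counting interval 21.04 to 4784). Pou3f1, a POU factor of Schwann cells, had enough counts on both sides for a fold change, 528 and 531 in EV shNC and 13 and 6 in dHLH-Bmal1 shNC, 63.4 and 57.9 and 0.882 and 0.959 CPM (-6.04 ± 0.29, edgeR adjusted p = 6.61e-11). Genes of the Ugt1a locus, Dynlt1b and predicted genes also met the rule for the largest changes, but share sequence with near copies among which the counting divides reads, and their values are not given. Of the 211 genes that the rule named, 117 overlap another annotated gene, and whether counting used strand is not stated.

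The same construct in YUMM2.1 cells with no hairpin gives a comparison that shares no library with this one. The paper describes the hairpin viruses as added to the EV and dHLH-Bmal1 lines, so the settings cannot be taken as independent lines. Whether those lines differ in ways apart from the construct, which could recur in each setting, was not tested. There, 2675 of 14422 genes (18.5%) were called, 9.49% higher and 9.06% lower. Of 13861 genes tested in both, 2401 rose with shNC, and 1041 of them also rose with no hairpin, which is 43.4% of the shNC list and 77.3% of the 1347 of the other, while 13 fell there. Of the 2412 that fell with shNC, 903 fell with no hairpin, 37.4% of the shNC list and 71.8% of the other's 1257, and 14 rose. By sign alone, 2157 of the 2401 (89.8%) and 2127 of the 2412 (88.2%) were on the same side. The log2 fold changes of the 13861 genes had a Pearson correlation of 0.68, given as a description, since genes within a comparison share libraries. Without the library labelled EV replicate 2, a choice made after seeing the data, 1098 genes rose in both (45.4% of the shNC list and 73.2% of the other) and 963 fell in both (39.8% and 69.9%), with a correlation of 0.65 over 13984 genes.

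**Figure D4:**
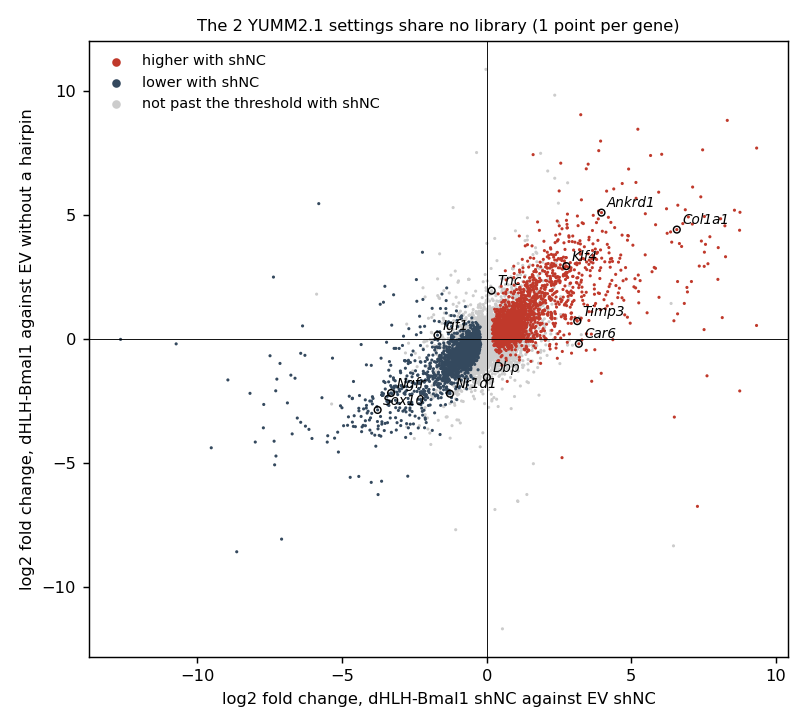
Log2 fold change of dHLH-Bmal1 over EV in cells with shNC (x axis) against that in cells with no hairpin (y axis), 1 point a gene tested in both, with named genes marked. The cloud runs along the diagonal with r = 0.68, Timp3 and Car6 lie far to the right of it, and Nr1d1 and Sox10 lie below 0 on both axes while Dbp lies near 0 on the x axis only.

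A test of the difference between the effects called 13 of 14422 genes (0.0901%; 0.0555% above and 0.0347% below 0), and 1670 at an unadjusted p under 0.05. The count depends on the libraries. In edgeR it was 0 without EV shNC replicate 1, EV shNC replicate 2 or dHLH-Bmal1 shNC replicate 2 (1222, 1164 and 1127 genes at an unadjusted p under 0.05) and 1 without dHLH-Bmal1 shNC replicate 1. Leaving out no-hairpin libraries gave 44 without EV replicate 1, 159 without EV replicate 2, and 34 and 25 without dHLH-Bmal1 replicates 1 and 2. DESeq2 called 144 with all 8 libraries. Each of the 13 was also called without EV replicate 2. Timp3 rose by 3.13 with shNC and by 0.74 with no hairpin, a difference of 2.397 ± 0.18, edgeR adjusted p = 0.00226. Car6, a secreted carbonic anhydrase, was at 2.29 and 2.53 CPM in EV and 23.6 and 20.3 CPM in dHLH-Bmal1 with shNC, and at 7.83 and 7.15 and 6.196 and 7.096 CPM with no hairpin, so it rose with shNC and lay flat without (difference 3.36 ± 0.33, edgeR adjusted p = 0.0105). Igf1 fell with shNC but not with no hairpin, where it was at 26.3 and 20.5 CPM in EV and 27.9 and 24.8 CPM in dHLH-Bmal1 (difference -1.86 ± 0.25, edgeR adjusted p = 0.0328). Tnc, tenascin C, did the reverse: it was at 30.5 and 30.8 CPM in EV shNC and 34.7 and 34.4 CPM in dHLH-Bmal1 shNC (0.17 ± 0.14, edgeR adjusted p = 0.365) but rose by 1.96 with no hairpin (difference -1.79 ± 0.19, edgeR adjusted p = 0.0105). Camk2n1, an inhibitor of CaM kinase, rose by 2.46 with shNC and had a log2 fold change of 0.23 with no hairpin (difference 2.24 ± 0.31, edgeR adjusted p = 0.0456), and the lipid phosphatase Plpp2 fell by more with shNC (difference -2.46 ± 0.32, edgeR adjusted p = 0.03004). Igfbp4 and Aspa were higher with shNC, Igfbp4 past the test (0.71 ± 0.16, edgeR adjusted p = 0.00292) and Aspa not (0.54 ± 0.21, edgeR adjusted p = 0.050998), and both fell with no hairpin (-1.69 and -1.61). The Igfbp4 call with shNC was lost without EV shNC replicate 2 (edgeR adjusted p = 0.0538). P4ha2, a collagen prolyl hydroxylase, rose by 0.397 with shNC, a call lost with any 1 library left out (edgeR adjusted p between 0.0863 and 0.123), and by 1.84 with no hairpin (difference -1.44 ± 0.19, edgeR adjusted p = 0.03004). Slco4a1 also differed (-5.84 ± 0.61, edgeR adjusted p = 0.0105), with EV cells near 0 when there was no hairpin, 0.0825 and 0 CPM, so that this fold rests on few counts.

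Sox9 shows how far 1 library reaches. With no hairpin it was at 18.2 and 86.4 CPM in the libraries labelled EV and 205 and 264 CPM in dHLH-Bmal1, so the 2 EV libraries lay further apart in ratio than EV shNC and dHLH-Bmal1 shNC did. The difference between the effects of dHLH-Bmal1 on Sox9 was -0.65 ± 0.699, edgeR adjusted p = 0.785 with all libraries and -2.16 ± 0.22, edgeR adjusted p = 0.00325 without EV replicate 2. For Ankrd1 it was -1.14 ± 0.58, edgeR adjusted p = 0.497 with and -2.805 ± 0.42, edgeR adjusted p = 0.0163 without that library. The other way round, Bgn was at 45.03 and 114 CPM in the EV libraries with no hairpin and its difference was 2.97 ± 0.53, edgeR adjusted p = 0.0777 with and 2.16 ± 0.26, edgeR adjusted p = 0.00571 without EV replicate 2. Ngfr also passed only without it (-1.14 ± 0.198, edgeR adjusted p = 0.0738 against -1.13 ± 0.22, edgeR adjusted p = 0.0455), as did Fosl1 (-1.198 ± 0.200, edgeR adjusted p = 0.06799 against -1.28 ± 0.22, edgeR adjusted p = 0.0304). For Sox10 the difference did not pass either way (-0.92 ± 0.17, edgeR adjusted p = 0.0777 and -0.89 ± 0.19, edgeR adjusted p = 0.0585).

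For the clock outputs the EV levels lay further apart between the settings than the dHLH-Bmal1 levels. Scaled together, Dbp was at 26.2 and 25.3 CPM in EV and 9.34 and 8.49 CPM in dHLH-Bmal1 with no hairpin, and at 12.3 and 8.79 and 10.5 and 10.6 CPM with shNC. Nr1d1 was at 14.9 and 20.5 and 3.14 and 4.65 CPM with no hairpin and at 8.45 and 10.9 and 3.89 and 4.19 CPM with shNC. In both genes the dHLH-Bmal1 libraries of the 2 settings lay near each other, and the EV shNC libraries lay below the EV libraries with no hairpin. Tef was at 97.4 and 109 CPM in EV and 49.4 and 49.7 CPM in dHLH-Bmal1 with no hairpin against 47.7 and 56.5 and 49.3 and 58.3 CPM with shNC, and Nr1d2 at 69.5 and 68.001 and 27.6 and 20.01 CPM against 34.1 and 36.05 and 26.7 and 30.7 CPM. The tests of these differences gave edgeR adjusted p = 0.107 for Dbp, 0.436 for Nr1d1, 0.0777 for Tef and 0.09996 for Nr1d2, and none fell under 0.05 without EV replicate 2 (0.0716, 0.564, 0.0591 and 0.0642). The hairpin and the experiment changed together between the settings and cannot be told apart.

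WT-Bmal1 shNC cells share the EV shNC controls with dHLH-Bmal1 shNC, so their own fold changes are not independent, and the constructs were compared directly. WT-Bmal1 shNC differed from EV shNC in 31.9% of the genes tested, 16.1% higher and 15.8% lower. Several list shifts described above for dHLH-Bmal1 shNC were also seen there. In WT-Bmal1 shNC 20 of 27 ATF4 genes were higher and 0 lower. Of 35 SRF targets 19 were higher and 5 lower, and of 22 state factors 13 and 4. Of 29 genes of sterol and fatty acid synthesis 19 were lower and 1 higher, and of 19 MAPK genes 9 and 0. Of 14027 genes, 650 (4.63%) differed between dHLH-Bmal1 shNC and WT-Bmal1 shNC, 308 (2.2%) higher and 342 (2.44%) lower in dHLH-Bmal1. The count was 814 and 316 without WT-Bmal1 shNC replicates 1 and 2 and 166 and 229 without dHLH-Bmal1 shNC replicates 1 and 2. Sox10 was at 96.99 and 97.5 CPM in WT-Bmal1 shNC, between the other groups, and lower in dHLH-Bmal1 (dHLH-Bmal1 over WT-Bmal1 -2.04 ± 0.11, edgeR adjusted p = 3.28e-09). Ngfr was also between, at 98.99 and 104 CPM (-0.998 ± 0.103, edgeR adjusted p = 1.71e-05). Col1a1, at 47.96 and 47.8 CPM in WT-Bmal1, was higher in dHLH-Bmal1 (1.96 ± 0.12, edgeR adjusted p = 2.84e-08), as were Col1a2 (2.89 ± 0.18, edgeR adjusted p = 2.84e-08) and Bgn (1.43 ± 0.11, edgeR adjusted p = 5.19e-07), and 14 of 44 matrix genes were higher and 3 lower in dHLH-Bmal1. Csf1 was at 48.4 and 40.9 CPM in WT-Bmal1 (0.85 ± 0.13, edgeR adjusted p = 9.89e-04). For Sox9 and Klf4 no difference was shown. Sox9 was at 312 and 359 CPM in WT-Bmal1 (-0.038 ± 0.088, edgeR adjusted p = 0.874), and Klf4 at 540.0 and 545 CPM (0.27 ± 0.085, edgeR adjusted p = 0.07903).

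Several clock genes differed between the constructs. Dbp was at 18.6 and 25.9 CPM in WT-Bmal1 shNC, above both EV shNC and dHLH-Bmal1 shNC (dHLH-Bmal1 over WT-Bmal1 -1.09 ± 0.23, edgeR adjusted p = 0.0114). Nr1d2 was at 60.8 and 67.005 CPM in WT-Bmal1 (-1.18 ± 0.13, edgeR adjusted p = 3.38e-05) and Tef at 82.7 and 99.1 CPM (-0.78 ± 0.14, edgeR adjusted p = 0.00312). Nr1d1, at 9.08 and 10.8 CPM in WT-Bmal1 and so at the EV level, was lower in dHLH-Bmal1 (-1.32 ± 0.27, edgeR adjusted p = 0.00817), and so was Per3 (-0.997 ± 0.23, edgeR adjusted p = 0.0203). Cry1 was the clock gene that was higher in dHLH-Bmal1, with 16.6 and 18.5 CPM in WT-Bmal1 (0.89 ± 0.16, edgeR adjusted p = 0.00325).

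Cells with a Myh9 hairpin give the effect of dHLH-Bmal1 on another background, again with no shared library. Here too the hairpins were added to the EV and dHLH-Bmal1 lines, so these are not independent lines. Myh9, in a fit of the 18 hairpin libraries, was at 682 and 645 CPM in EV shNC, 223 and 241 in EV shMyh9#2 and 479 and 448 in EV shMyh9#4, and at 881 and 859, 283 and 256 and 669 and 629.9 CPM in the dHLH-Bmal1 cells of the same hairpins. The shMyh9#2 libraries lay lowest with either construct. The effect of dHLH-Bmal1 differed between shNC and shMyh9#2 in 489 of 14848 genes (3.29%, with 2.2% above and 1.1% below 0) and between shNC and shMyh9#4 in 1264 (8.51%, with 5.46% above and 3.05% below 0). Without EV shNC replicates 1 and 2 the first count was 211 and 206, without dHLH-Bmal1 shNC replicates 1 and 2 it was 212 and 205, without EV shMyh9#2 replicates 1 and 2 it was 207 and 274, and without dHLH-Bmal1 shMyh9#2 replicate 2 it was 252. The second was 553 and 495 without EV shNC replicates 1 and 2, 428 and 669 without dHLH-Bmal1 shNC replicates 1 and 2, 447 without EV shMyh9#4 replicate 2 and 314 without dHLH-Bmal1 shMyh9#4 replicate 2. With shMyh9#2, 6.09% of the genes were higher and 6.75% lower in dHLH-Bmal1 than in EV, and with shMyh9#4 16.6% and 18.7% were. Of the 2416 genes that rose with shNC, 677 rose with shMyh9#2 (28.02% of the shNC list and 76.8% of the 882 of the other) and 1322 with shMyh9#4 (54.7% and 54.8%). Of the 2419 that fell, 732 fell with shMyh9#2 (30.3% and 73.3%) and 1355 with shMyh9#4 (56.0% and 49.3%). Across genes the fold changes had r = 0.55 and 0.53 with those in shNC, as a description.

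**Figure D5:**
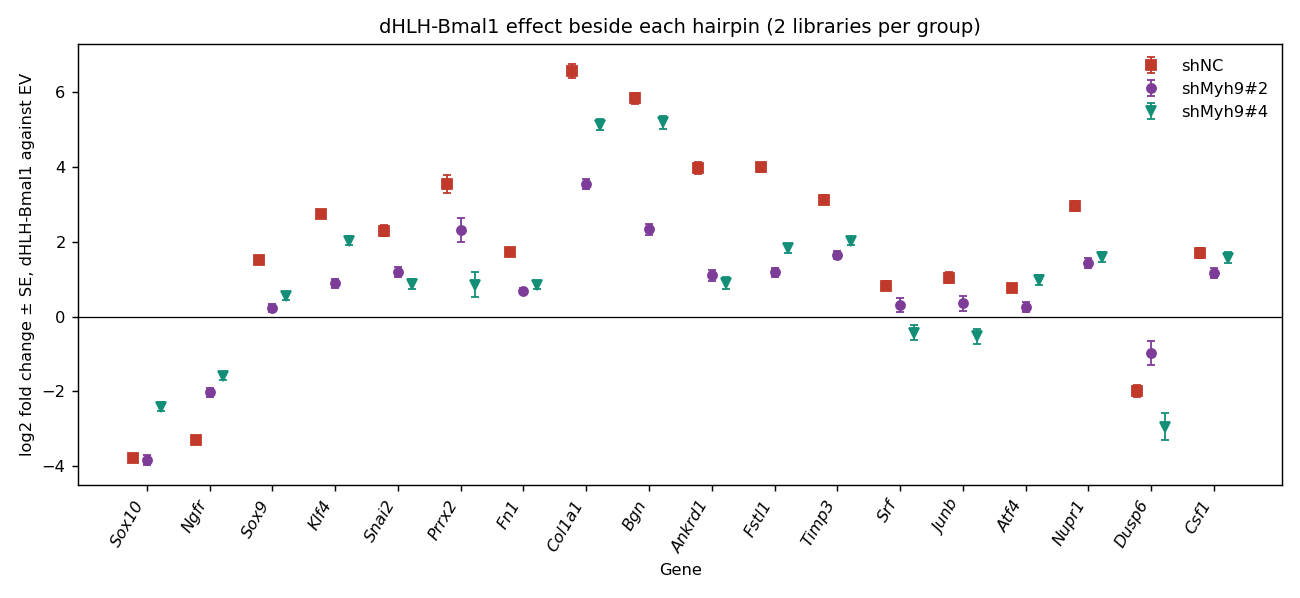
Log2 fold change of dHLH-Bmal1 over EV (y axis) with its standard error (bars) for 18 genes (x axis) in cells with shNC, shMyh9#2 and shMyh9#4. Sox10 lies below 0 and Col1a1 and Bgn lie above 0 with each hairpin, and Sox9, Klf4 and Ankrd1 lie further from 0 with shNC than with either Myh9 hairpin.

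Several mesenchymal genes rose less with the Myh9 hairpins, from an EV level that was already higher. Sox9 was at 115 and 111 CPM in EV shNC, 290.1 and 293 in EV shMyh9#2 and 260.3 and 281 in EV shMyh9#4, and with dHLH-Bmal1 at 323 and 326, 362 and 320.2 and 367 and 423 CPM. The dHLH-Bmal1 levels thus lay close together while the EV levels did not, and the effect was larger with shNC by 1.298 ± 0.15, edgeR adjusted p = 7.27e-05 than with shMyh9#2 and by 0.98 ± 0.15, edgeR adjusted p = 9.41e-04 than with shMyh9#4. Klf4 had the same order of EV levels, at 100.7 and 93.5, 276 and 257 and 186 and 186 CPM in EV and 622 and 683, 546 and 447 and 688 and 829 CPM in dHLH-Bmal1 (differences 1.85 ± 0.17, edgeR adjusted p = 5.57e-06 and 0.72 ± 0.17, edgeR adjusted p = 0.0145). With dHLH-Bmal1, Klf4 lay lower with shMyh9#2 than with shNC, with no overlap, and highest with shMyh9#4. Ankrd1 lay lower in dHLH-Bmal1 with either Myh9 hairpin than with shNC. It was at 4.79 and 4.57, 26.1 and 24.1 and 16.1 and 12.3 CPM in EV and 73.04 and 73.2, 51.1 and 56.8 and 26.1 and 26.7 CPM in dHLH-Bmal1 (differences 2.86 ± 0.23, edgeR adjusted p = 9.58e-07 and 3.06 ± 0.24, edgeR adjusted p = 1.63e-06). For Col1a1 the EV levels were 1.79 and 2.07, 17.5 and 23.7 and 5.83 and 5.804 CPM and the dHLH-Bmal1 levels 193 and 177, 234 and 248 and 205 and 203 CPM (differences 3.02 ± 0.22, edgeR adjusted p = 4.40e-07 and 1.44 ± 0.25, edgeR adjusted p = 0.00217). Sox10 fell with each hairpin, from 186 and 176 to 13.98 and 11.9 CPM with shMyh9#2 and from 218 and 257 to 45.3 and 44.1 CPM with shMyh9#4. Its fall was larger with shNC than with shMyh9#4 (-1.36 ± 0.16, edgeR adjusted p = 1.23e-04), and no difference from shMyh9#2 was shown (0.067 ± 0.17, edgeR adjusted p = 0.896). Ngfr fell less with either Myh9 hairpin (-1.29 ± 0.17, edgeR adjusted p = 1.98e-04 and -1.72 ± 0.17, edgeR adjusted p = 1.02e-05). By list, the effect with shNC was above that with shMyh9#2 for 5 and below it for 1 of the 22 state factors, for 9 and 3 of the 44 matrix genes, for 4 and 1 of the 44 hypoxia genes and for 3 and 2 of the 45 cell cycle genes, where 2.2% of all genes were above and 1.1% below. It was above for 5 of the 24 TGF-beta and BMP genes and 3 of the 27 ATF4 genes, and below for 4 of the 29 genes of sterol and fatty acid synthesis. Against shMyh9#4 it was above and below for 7 and 2 state factors, 12 and 5 matrix genes, 8 and 3 hypoxia genes, 8 and 1 ATF4 genes and 1 and 1 genes of sterol and fatty acid synthesis, and above for 7 TGF-beta and BMP genes and 3 cell cycle genes, where 5.46% of all genes were above and 3.05% below.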

How the data were processed

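RNA from cultured cells was extracted with TRIzol and treated with DNase, and libraries were made with the QuantSeq FWD 3′ kit. The authors aligned reads to mm10 with Bowtie2 and estimated counts per gene with RSEM (1.2.3 per the labels), and deposited these estimated counts for 51789 genes in 40 libraries as whole numbers without normalization; the labels also name DESeq2. Groups are those of the labels. In R 4.3.3, edgeR 4.0.16 (TMM, filterByExpr, quasi-likelihood F test, Benjamini-Hochberg adjusted p under 0.05) was fitted to the 8 libraries of EV shNC, EV shMyh9#2, WT-Bmal1 shNC and dHLH-Bmal1 shNC, to the 8 libraries with and without shNC for the no-hairpin difference, and to the 18 hairpin libraries for the Myh9 hairpins. The standard error is the log2 fold change over the root of F. DESeq2 1.42.0, other filters, fits and left-out libraries were alternatives. At these depths 1 count is 0.0679 to 0.1575 CPM in dHLH-Bmal1 shNC, and intervals cover counting error only. Scripts were tested on simulated data.

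Libraries were assigned to groups by their labels, but this comparison was picked for description, and its members and gene lists chosen, with earlier results of these data known. Symbols and positions are from GENCODE for GRCm38, and promoters from RefSeq. Genes named are Arntl, Myh9, genes the study names, all clock members, 15 defining genes, up to 4 members of each list in each direction, the 12 largest protein-coding changes each way (10 counts or more on average, groups not overlapping), and up to 5 genes each way for each difference between settings; others are marked as chosen after seeing values. Some items that the rule names are not reported here.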

Additional observations from a re-analysis of the deposited data

Results flagged for a closer look

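The effect of dHLH-Bmal1 with shNC differed from that in another setting by a test of the difference itself for 13 genes against cells with no hairpin, 489 against shMyh9#2 and 1264 against shMyh9#4. Every value below is the log2 fold change of dHLH-Bmal1 over EV with shNC minus that in the other setting, for genes with an edgeR adjusted p under 0.05. The hairpin and the experiment cannot be told apart in the first, and the tests share the shNC libraries.

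Against no hairpin the difference was 3.36 for Car6, 2.41 for Igfbp4, 2.397 for Timp3, 2.24 for Camk2n1 and 2.15 for Aspa, where shNC gave the higher fold change. It was -5.84 for Slco4a1, -2.46 for Plpp2, -1.86 for Igf1, -1.79 for Tnc and -1.44 for P4ha2. Slco4a1 was at 0.0825 and 0 CPM in EV with no hairpin, so its value depends on the prior count added to each library.

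Against shMyh9#2, the difference was 3.02 for Col1a1, 1.85 for Klf4, 1.298 for Sox9, 1.11 for Snai2, 1.04 for Fn1 and 1.47 for Timp3. Car6 differed by 1.65 and Camk2n1 by 1.900. Below 0 were Bace2 at -2.67, Plpp2 at -2.08, Igf1 at -1.43 and Tnc at -0.94. Bace2, a beta-secretase, was at 8.49 and 8.59 CPM in EV shNC and 3.37 and 2.54 CPM in dHLH-Bmal1 shNC, and at 1.92 and 3.03 and 5.51 and 5.68 CPM with shMyh9#2.

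Against shMyh9#4 the differences were 2.68 for Prrx2, 2.32 for Lmo1, 1.56 for Junb, 1.44 for Col1a1, 1.43 for Snai2, 1.25 for Srf, 1.11 for Timp3, 1.07 for Camk2n1, 0.98 for Sox9, 0.89 for Fn1, 0.72 for Klf4 and 0.64 for Actn4. Sox10 differed by -1.36, Plpp2 by -2.91, Tnc by -1.55 and Igf1 by -0.897. Beside these, the rule for named genes gave 10 genes for each Myh9 hairpin. Of these, 5 for shMyh9#2 and 6 for shMyh9#4 are not protein-coding, and 3 for each are protein-coding genes at 0 in a group, for which a fitted difference has no bound.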

How the results depend on the processing

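The number of genes called between dHLH-Bmal1 shNC and EV shNC, 4835, lay between 3250 and 3335 with 1 library left out and between 3864 and 5618 with DESeq2's test, its size factors, other filters and other sets of libraries, and was 1821 with an absolute log2 fold change of at least 1. Against WT-Bmal1 shNC the 650 genes became 284 with the 18 hairpin libraries in 1 fit, 246 with all 40, 1032 with no filter and 224 with an absolute log2 fold change of at least 1, and 166 to 814 with 1 library left out. For the difference from the cells with no hairpin, 13 genes became 144 with DESeq2, 303 with all 40 libraries and 516 with no filter, and 0 to 159 in edgeR with 1 library left out (at the counts of 0, 1127 to 1222 genes had an unadjusted p under 0.05). The difference from shMyh9#2, 489 genes, was 950 with no filter and 205 to 710 with 1 library left out, and that from shMyh9#4, 1264 genes, 314 to 1421. The cause was not tested.

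Replicate numbers may not pair the libraries: no source says what a number shares, and the deviations of EV shNC and dHLH-Bmal1 shNC from their group means correlated at 0.011. With the replicate block the 5 counts were 4816, 635, 115, 432 and 1196.

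Over 1746 pairs of a named gene and a setting, 1672 kept direction and side of the threshold, 59 lost and 5 gained the call and 10 changed sign, all of genes that were not called. Of 123 genes whose call the text gives, 104 stayed called in every setting tried, 15 lost the call with a library left out and 14 in another setting, and Pdgfra also with the replicate block (edgeR adjusted p = 0.0504). The log2 fold change of Dbp was -0.0112 with DESeq2's test, -0.00657 with its size factors, -0.00674 with all 40 libraries and -0.23 to 0.26 with 1 library left out. With 1 library left out Tef ranged from -0.083 to 0.16, Mrtfa from -0.035 to 0.23, Hif1a from -0.045 to 0.090 and Mlph from -0.51 to 0.075. Depth limits genes of low count: list members below the filter, 126 with counts in the table, had at most 22 counts in a library, and 57 of them none in the 4 libraries.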
